A study of Mus musculus with 20 samples.

Results

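Glycolysis splits glucose to pyruvate, and this account follows 33 genes of that route, of lactate production and export and of its control in mouse mammary cells. They were listed by name and not by a threshold on their values, but with earlier results of these data known. They hold 3 glucose transporters (Slc2a1, Slc2a3, Slc2a4), 9 genes of upper glycolysis, 4 PFKFB regulators of phosphofructokinase, 8 genes of lower glycolysis, 4 lactate genes (Ldha, Ldhb, Slc16a1, Slc16a3), 4 pyruvate dehydrogenase kinases (Pdk1 to Pdk4) and Hif1a. The deposited table of 54986 genes lists all 33, and 28 of them were among the 17106 genes tested. RNA sequencing of 20 libraries measured them in 10 groups of 2, all of NMuMG cells, a mouse mammary gland epithelial line, or lines derived from it, grown in 2-dimensional culture.

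The first 5 groups were untreated NMuMG, NMuMG treated with TGFβ (4 days by the study's methods), E1KD (NMuMG in which an shRNA silences hnRNP E1, the product of Pcbp1), and the lines M1P and L1P, which were grown out of a primary tumor and of lung metastases that E1KD cells formed in NOD/SCID mice. The other 5 groups were NMuMG with an empty vector, 2 single NMuMG clones (12 and 16) that overexpress the long noncoding RNA Platr18 (listed as Lncenc1), E1KD cells that carry either a scrambled shRNA (E1KD SCR) or an shRNA against Platr18 (E1KD Platr18 KD). M1P and L1P therefore carry the hnRNP E1 shRNA as E1KD does, and both E1KD SCR and E1KD Platr18 KD carry it as well. Each tumor line, like each clone, stands for 1 derivation, and nothing in the labels says that the replicate libraries came from separate cultures. The p-values therefore measure the spread between libraries, which may be technical. That spread was estimated for each gene over all 20 libraries at once, and not from the compared groups alone.

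Both sets of 5 groups were separate kinds of library. The mitochondrial ribosomal RNA mt-Rnr2 lay between 333 and 492 counts per 1e6 reads (CPM) in the first 10 libraries and between 113870 and 165150 CPM in the other 10. All comparisons were therefore made within a kind. Values were scaled to 50.8 to 60.0 M reads in the first kind and 63.0 to 147 M in the other, so that 3 reads are worth 0.05 to 0.0591 CPM and 0.0204 to 0.0477 CPM. Pcbp1 fell from 287 and 312 CPM in NMuMG to 16.6 and 14.2 CPM in E1KD, and E1KD SCR had 3.28 and 3.46 CPM against 32.3 and 32.3 CPM with the empty vector. Platr18 had 3092 and 3096 CPM in clone 12, 813 and 820 CPM in clone 16 and 3.69 and 3.06 CPM with the empty vector. In E1KD SCR, at 2.92 and 3.10 CPM, it was no higher than with the empty vector, and E1KD Platr18 KD had 0.136 and 0.170 CPM. Libraries of the first kind differed, since there E1KD cells held more of this RNA (17.9 and 14.6 CPM) than untreated cells (1.24 and 1.45 CPM). TGFβ-treated libraries reached 2.40 and 2.70 CPM. Both tumor lines lay above E1KD (M1P 25.7 and 26.2 CPM, L1P 76.9 and 73.3 CPM). Of 7 epithelial markers, 4 (Cdh1 and the keratins Krt8, Krt18 and Krt19) were at 1 CPM or more in every library, whereas Epcam, Cldn3 and Cldn7 were under 1 CPM in all. The 7 summed to 2916.5 to 2969.6 CPM in NMuMG, 1734 to 2059 CPM after TGFβ and 2823 to 3959 CPM in E1KD. Sums of 5 mesenchymal markers (Vim, Cdh2, Fn1, Zeb1, Snai1) were 530 to 551, 1339 to 1551 and 1333 to 1812 CPM there. They were 642 to 681 CPM with the empty vector and 751 to 816 CPM in E1KD SCR.

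Hexokinases trap glucose inside the cell, phosphofructokinase sets the pace of the upper part of the route, and the lower part yields ATP and pyruvate. Lactate dehydrogenase turns pyruvate to lactate, which the transporters Slc16a1 (MCT1) and Slc16a3 (MCT4) carry across the membrane, while the pyruvate dehydrogenase kinases hold pyruvate back from the mitochondria. Many of these genes are textbook targets of the transcription factor HIF1, of which Hif1a is a subunit, and Platr18 is known to support glycolysis in embryonic stem cells.

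The members did not move as 1 block. TGFβ treatment was accompanied by the widest fall, with Hk2 and Pfkfb3 moving the other way. E1KD cells expressed Pfkp and Eno2, which NMuMG cells hardly expressed, and had less Pdk1 and Aldoc. The tumor line M1P had more Eno2 than E1KD. Platr18 clone 12 had next to no Pdk3 reads and less Pdk1 and Aldoc, and none of these 3 falls was called in clone 16.

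**Figure D1:**
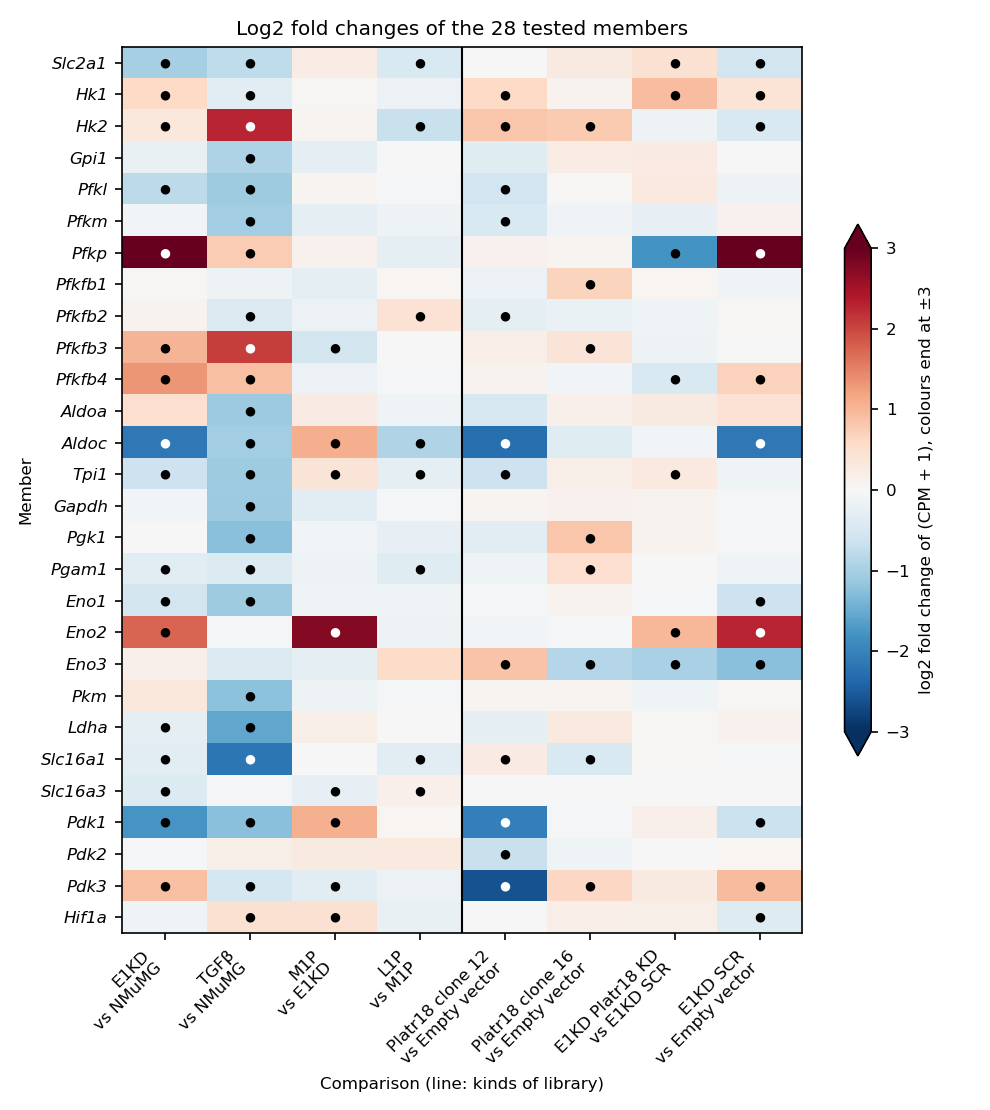
Log2 fold change on the log2(CPM + 1) scale (color) of the 28 tested members (rows), with marks on the changes called by limma. Columns are the comparisons other than the mean of both clones and the tests of a difference. TGFβ has the most members called lower, 18 of 28 against 33.6% of all genes, and Hk2 and Pfkfb3 rise in the same column.

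Some of these values share reads with other rows of the table. Genes with near-identical copies, most of them processed pseudogenes, were Gapdh with 79 copies, Eno1 and Pgk1 with 3 each, Ldha with 2 and Gpi1, Pkm, Pgam1, Tpi1 and Ldhb with 1 each. A copy was a gene with a transcript at least 95% identical over at least 100 bases and 50% of its length. The copies of Gapdh held 92.8% to 95.8% of the CPM summed over gene and copies, those of Eno1 73.0% to 88.7% and those of Pgk1 66.5% to 89.0%. For Pkm, a key enzyme at the end of the route, the share was 23.1% to 65.8%, for Ldha 12.9% to 57.1% and for Tpi1 12.2% to 24%. The level of these genes by themselves is therefore uncertain, and sums over gene and copies are given where they matter. Pfkp overlaps Pitrm1 on the opposite strand over 749 bases, and Pfkm overlaps Senp1 over 1157 bases. Opposite-strand overlaps were also found for Pfkfb2 with Yod1 (7033 bases, Yod1 at 8.06 to 19.9 CPM), Gpi1 with Gm26762 (5483 bases, up to 21.1 CPM) and Pfkfb1 with Apex2 (1641 bases, 9.31 to 22.6 CPM). Pkm overlaps RP23-320D23.6 on the same strand over 3888 bases (66.8 to 163.7 CPM). The strand of counting is not stated in the sources used here, so reads from such overlaps cannot be told apart.

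**Figure D2:**
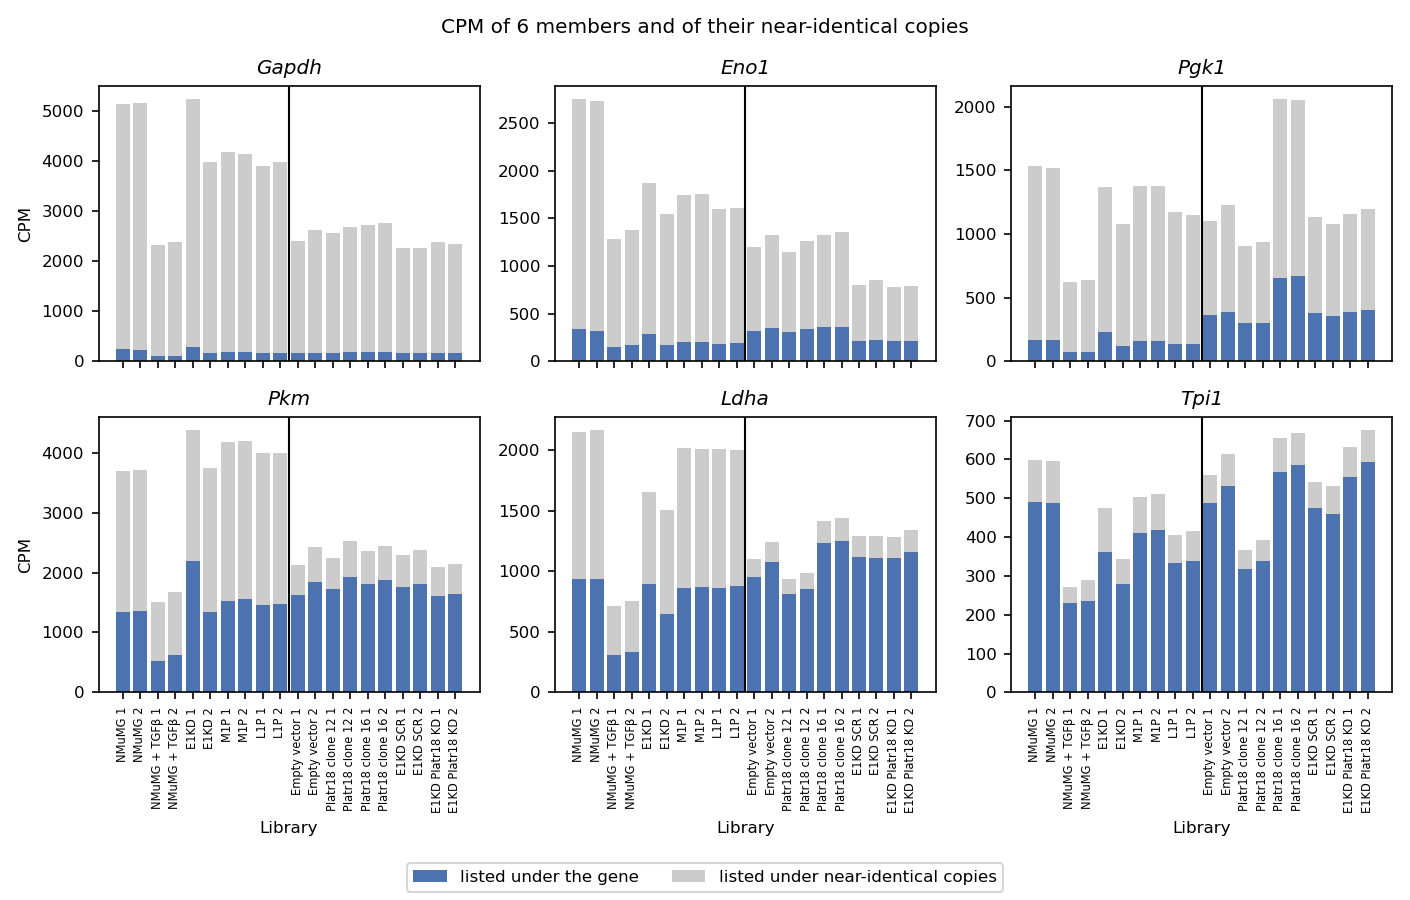
CPM of 6 members alone and of the same members summed with their near-identical copies, in each of the 20 libraries. For Gapdh nearly all of the summed CPM lies in copies, and the TGFβ libraries are lower than NMuMG on both measures.

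The first question was which members moved with TGFβ, a known inducer of epithelial-mesenchymal transition. Of the 28 tested members, 5 rose and 18 fell (limma, Benjamini-Hochberg adjusted p under 0.05 over all 17106 genes). Of all genes tested, 21.8% rose and 33.6% fell. Changes of at least 2-fold are counted here and below on the log2(CPM + 1) scale, which understates changes of low genes. Such a call was made for 14 members, 2 up and 12 down, and for 13.6% of all genes. The members' median log2 fold change was -0.64, against -0.08 over all genes. The summed CPM of the 33 genes was 5244 and 5228 in NMuMG and 2642 and 2926 after TGFβ.

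Hk2, the inducible hexokinase (chr6:82725025-82774455, minus strand), had 52.3 and 52.8 CPM in NMuMG and 250.04 and 268.9 CPM after TGFβ. The treated libraries lay far above both controls. Its log2 fold change was 2.28 with a standard error (SE) of 0.10, and limma gave an adjusted p of 7.10e-11. Hk1, the housekeeping hexokinase, fell by 0.33 on the log2 scale. Per kilobase of a gene's merged exons, Hk2 made up 88.9% of the hexokinase CPM after TGFβ and 56.2% before. Pfkfb3, which makes the fructose bisphosphate that activates phosphofructokinase (chr2:11471433-11554078), had 8.09 and 7.35 CPM in NMuMG and 35.2 and 36.5 CPM after TGFβ, with no overlap. The log2 fold change was 2.08 (SE 0.09, limma adjusted p 7.78e-11). Pfkfb3 was 26.2% of the CPM per kilobase of the 4 PFKFB genes in NMuMG and 61.3% after TGFβ. Pfkfb4 (0.89), Pfkp (0.76) and Hif1a (0.46) also rose on the log2 scale.

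Lactate genes stood at the other end. Slc16a1, the lactate and pyruvate transporter MCT1, had 112.3 and 115.9 CPM in NMuMG and 24.3 and 24.7 CPM after TGFβ. The control libraries were more than 4 times as high as the treated ones, and the log2 fold change was -2.17 (SE 0.07, limma adjusted p 5.69e-12). Ldha, the lactate dehydrogenase subunit of glycolytic tissue, had 939.9 and 935.4 CPM in NMuMG and 306.6 and 331.9 CPM after TGFβ. Neither treated library came near the controls, and the log2 fold change was -1.55 (SE 0.11, limma adjusted p 1.87e-08). Summed with its copies Ldha had 2146 and 2163 CPM before and 713.6 and 752.9 CPM after, again a log2 fold change of -1.55. The other lactate transporter, Slc16a3, was at 1.22 and 1.09 CPM in NMuMG and at 1.02 and 1.12 CPM after TGFβ, and was not called.

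In the lower part of the route, Pkm, which makes pyruvate, had 1348 and 1353 CPM in NMuMG and 517.5 and 629.9 CPM after TGFβ (log2 fold change -1.24). Pgk1, the first enzyme of the route to yield ATP, had 170.4 and 169.5 CPM before and 68.5 and 72.2 CPM after (-1.26). Gapdh, often used as a reference gene, had 236.0 and 231.9 CPM before and 106.3 and 111.4 CPM after (-1.10). For these 3 genes both treated libraries were below both controls, and their sums with copies changed by -1.21, -1.27 and -1.13. Eno1, the main enolase, had 336 and 320 CPM before and 147.3 and 165.1 CPM after (-1.07). Pgam1, phosphoglycerate mutase, fell less (-0.41), and Eno3, the muscle enolase, was not called (-0.40).

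In the upper part, Aldoa, the main aldolase, had 345.5 and 343.6 CPM in NMuMG and 147.4 and 178.6 CPM after TGFβ (log2 fold change -1.08). Tpi1, which interconverts both triose phosphates, had 491 and 489 CPM before and 229.9 and 234.8 CPM after (-1.07). These 2 genes did not overlap between groups, and neither did the following 4 members. Pfkl, the liver-type phosphofructokinase, had 56.0 and 55.4 CPM before and 24.1 and 28 CPM after (-1.07), and Pfkm, the muscle type, 23 and 22.8 CPM before and 9.51 and 11.9 CPM after (-1.04). Aldoc, the brain-type aldolase, had 9.81 and 9.90 CPM before and 4.14 and 4.33 CPM after (-1.05). Pdk1, a pyruvate dehydrogenase kinase, had 76.1 and 80.3 CPM before and 31.1 and 32.8 CPM after (-1.26, limma adjusted p 7.68e-09). The remaining falls were Gpi1 (-0.92), the glucose transporter Slc2a1 (-0.76), Pdk3 (-0.53) and Pfkfb2 (-0.42).

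The size of these falls depends on the scaling. The TGFβ libraries had median-of-ratios factors of 0.844 and 0.903 and E1KD library 1 had 1.32, while the factors of the other 17 lay near 1. With these factors applied, all genes had a median of 0.00, with 32.9% rising and 29.5% falling after TGFβ, 6 members rose and 18 fell, and the members' median was -0.50. Of the 12 members that had fallen at least 2-fold, 5 still did, namely Slc16a1 (-2.0), Ldha (-1.37), Pdk1 (-1.09), Pgk1 (-1.08) and Pkm (-1.06). Hk2 then rose by 2.46 and Pfkfb3 by 2.26 on the log2 scale.

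**Figure D3:**
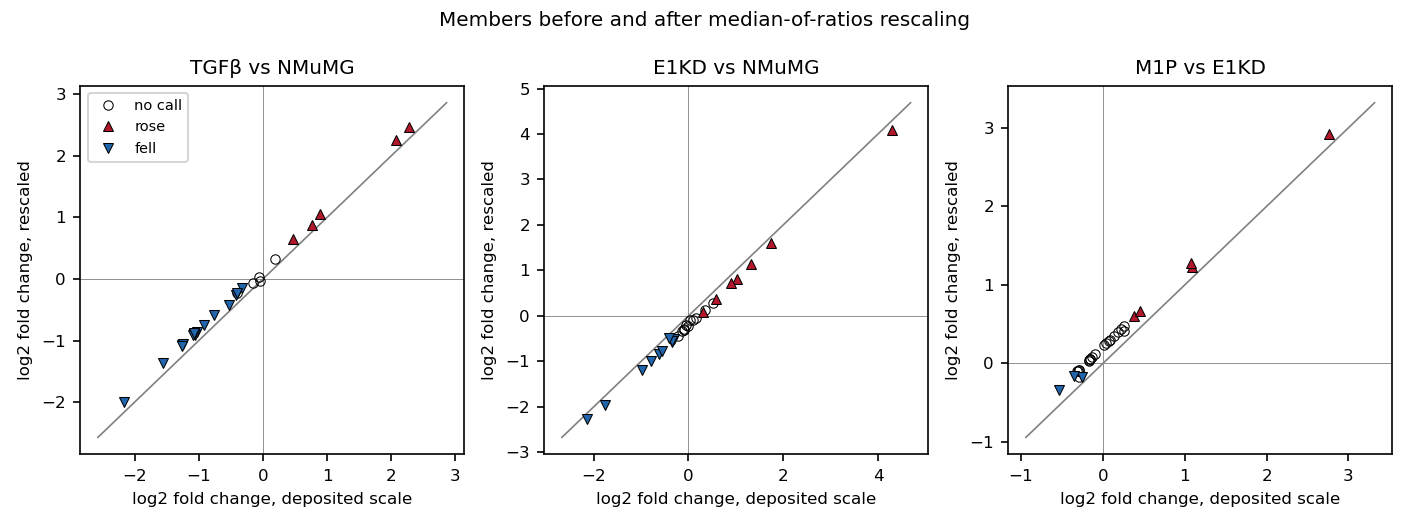
Log2 fold change of each tested member with CPM as deposited against that after median-of-ratios scaling, for TGFβ, E1KD and M1P. After TGFβ most members move up by 0.1 to 0.2, and those past 1 in size fall from 14 to 8.

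The promoters of 4 members are shown because their genes moved differently: Hk2 rose with TGFβ and in both Platr18 clones, Ldha and Pdk1 fell at least 2-fold with TGFβ, and Pgam1 fell little. Each is the stretch of 120 bases before the RefSeq transcription start in GRCm38.p6, read 5′ to 3′ on the gene's strand. Capitals mark the HIF core motifs ACGTG and GCGTG and their complements CACGT and CACGC, and in Ldha CACGTG, the E-box bound by Myc and others, holds both CACGT and ACGTG and so counts as 2 matches. The windows are chr6:82774455-82774574 (minus strand) for Hk2, chr7:46845684-46845803 for Ldha, chr2:71873104-71873223 for Pdk1 and chr19:41911751-41911870 for Pgam1, and none overlaps an annotated exon. The RefSeq start used for Ldha lies 4329 bases from the gene start in the deposited table.
Hk2: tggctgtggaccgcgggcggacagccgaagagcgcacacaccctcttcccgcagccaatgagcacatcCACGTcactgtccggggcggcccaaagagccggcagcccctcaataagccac
Ldha: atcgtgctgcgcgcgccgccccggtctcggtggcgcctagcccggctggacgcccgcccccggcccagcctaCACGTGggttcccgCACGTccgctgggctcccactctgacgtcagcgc
Pdk1: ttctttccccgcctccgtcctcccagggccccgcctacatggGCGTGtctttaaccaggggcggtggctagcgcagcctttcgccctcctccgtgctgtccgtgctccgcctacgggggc
Pgam1: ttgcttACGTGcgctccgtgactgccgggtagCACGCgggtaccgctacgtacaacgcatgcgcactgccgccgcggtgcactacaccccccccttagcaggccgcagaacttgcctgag
In the 250 bases before the start, at least 1 such motif on either strand was found in 24 of 31 matched members (77.4%), in 12679 of 32851 promoters of the RefSeq table (38.6%) and in 6412 of 11362 promoters of tested genes (56.4%). With overlapping matches counted, Ldha had 5, Pgam1 3, Hk2 2 and Pdk1 1. These 4 genes were picked by how they moved, and whether motifs go with the direction was not tested. Members were counted by 1 start each, with the untested Pgam2, Ldhb and Pdk4 among them. The other shares count every listed start, so they are not a like base. A match describes the letters of the window and is not a binding site.

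The second question was how silencing of hnRNP E1 by itself moved the members. In E1KD against NMuMG, 7 of the 28 rose and 10 fell (limma), with 39.6% of all genes rising and 17.1% falling. At least 2-fold changes were called for 6 members and for 10.1% of all genes. The members' median log2 fold change was -0.06, against 0.17 over all genes. After median-of-ratios scaling 6 members rose and 14 fell, with a median of -0.26 against 0.02, while 31.5% of all genes rose and 29.5% fell. With the spread taken from the compared groups only, fewer members were called, as given at the end.

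Pfkp, the platelet-type phosphofructokinase (chr13:6579768-6648778, minus strand), measured 0.353 and 0.746 CPM in the NMuMG libraries and 34.7 and 24.2 CPM in those of E1KD. Both E1KD libraries were far above the controls, with about 3076 reads against 60, a ratio of 53.5 (95% exact interval 41.5 to 70.3, counting error only). The fitted log2 fold change was 4.29 (SE 0.14, limma adjusted p 3.65e-12), and 4.09 after rescaling. Pitrm1, its neighbor on the opposite strand, lay at 12.1 and 11.3 CPM in NMuMG and at 26.6 and 11 CPM in E1KD. Its part in the Pfkp values was not tested. Per kilobase Pfkp was 0.269% of the phosphofructokinase CPM in NMuMG and 16.2% in E1KD.

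Eno2, the neuronal enolase (chr6:124760053-124769674, minus strand), measured 0.0355 and 0.132 CPM before silencing and 2.89 and 2.38 CPM after it. That is about 276 reads against 9, a ratio of 32.0 (16.6 to 70.8). Both E1KD libraries were above both controls, and the log2 fold change was 1.75 (SE 0.09, limma adjusted p 8.92e-10). Eno2 reached 1 CPM only in groups that carry the hnRNP E1 shRNA. It entered the test only through groups where it is high, so its adjusted p is descriptive. The PFKFB genes rose in part, and no overlap was seen. Pfkfb4 went from 2.64 and 3.43 CPM to 10.7 and 7.71 CPM (log2 fold change 1.33), and Pfkfb3 8.09 and 7.35 CPM against 18.4 and 15.1 CPM (1.02). Rescaled, Pfkfb4 rose by 1.14 and Pfkfb3 by 0.82.

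Aldoc, at 9.81 and 9.90 CPM in NMuMG, was left with 1.87 and 1.13 CPM, and its log2 fold change was -2.13 (SE 0.13, limma adjusted p 7.35e-09). Pdk1, at 76.1 and 80.3 CPM in NMuMG, was left with 23.9 and 20.9 CPM, and its log2 fold change was -1.76 (SE 0.08, limma adjusted p 2.60e-10). Neither gene overlapped between the groups. Pdk3, another kinase of this family, rose from 2.12 and 2.41 CPM to 6.16 and 4.21 CPM (0.90), so that per kilobase Pdk1 was 85.4% of the kinase CPM in NMuMG and 50.7% in E1KD. Slc2a1, the ubiquitous glucose transporter GLUT1, fell by 0.98 on the log2 scale, and by 1.19 after rescaling.

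The other changes in E1KD were smaller. Hk1 (0.59) and Hk2 (0.31) rose, though Hk2 was not called after rescaling (0.09). Pfkl (-0.78), Tpi1 (-0.62), Eno1 (-0.56), Slc16a3 (-0.41), Pgam1 (-0.35), Slc16a1 (-0.34) and Ldha (-0.30) fell. Slc16a3 reached 1 CPM only in the NMuMG and TGFβ libraries, so it was tested only through the groups where it was highest. Aldoa had 709.4 CPM in E1KD library 1 and 339.1 CPM in library 2, on both sides of the NMuMG level, and was not called (0.51). The libraries of E1KD differed in this way for most of the abundant members, and their summed CPM was 6310 and 4072.

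TGFβ treatment and hnRNP E1 silencing, both of which the study describes as inducing the transition, share the NMuMG controls, so they were compared directly. Of the 28 members 23 differed between E1KD and TGFβ, 17 higher and 6 lower in E1KD (limma), as did 71.5% of all genes. After rescaling 13 were higher and 9 lower, with 37.6% and 36.3% of all genes. At least 2-fold differences were called for 12 members and for 24.7% of all genes. From the library values above, those higher in E1KD were Pfkp (3.52 log2), Slc16a1 (1.83), Eno2 (1.79), Aldoa (1.59), Pkm (1.58), Pdk3 (1.44), Ldha (1.25), Pgk1 (1.24) and Gapdh (1.01). In E1KD Slc16a1 had 99.4 and 81.5 CPM, Pkm 2190 and 1343 CPM, Ldha 896 and 648.5 CPM, Pgk1 229.9 and 122.6 CPM and Gapdh 278.8 and 173.8 CPM, all above both TGFβ libraries. Pdk3 had 1.20 and 1.32 CPM and Eno2 0.0502 and 0.0501 CPM after TGFβ. Hk2, at 73.9 and 57.5 CPM in E1KD, was lower than after TGFβ by -1.98 log2, Aldoc by -1.08 and Pfkfb3 by -1.06. Among these 12 members, Pgk1, Ldha and Gapdh were under 2-fold after rescaling, at 0.85, 0.86 and 0.61. With copies added 10 differed at least 2-fold, Gapdh and Pgk1 no longer among them. Summed with copies, Gapdh had 5237 and 3980 CPM in E1KD and 2329 and 2388 CPM after TGFβ. Pgk1 had 1372 and 1081 CPM against 625 and 634 CPM.

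**Figure D4:**
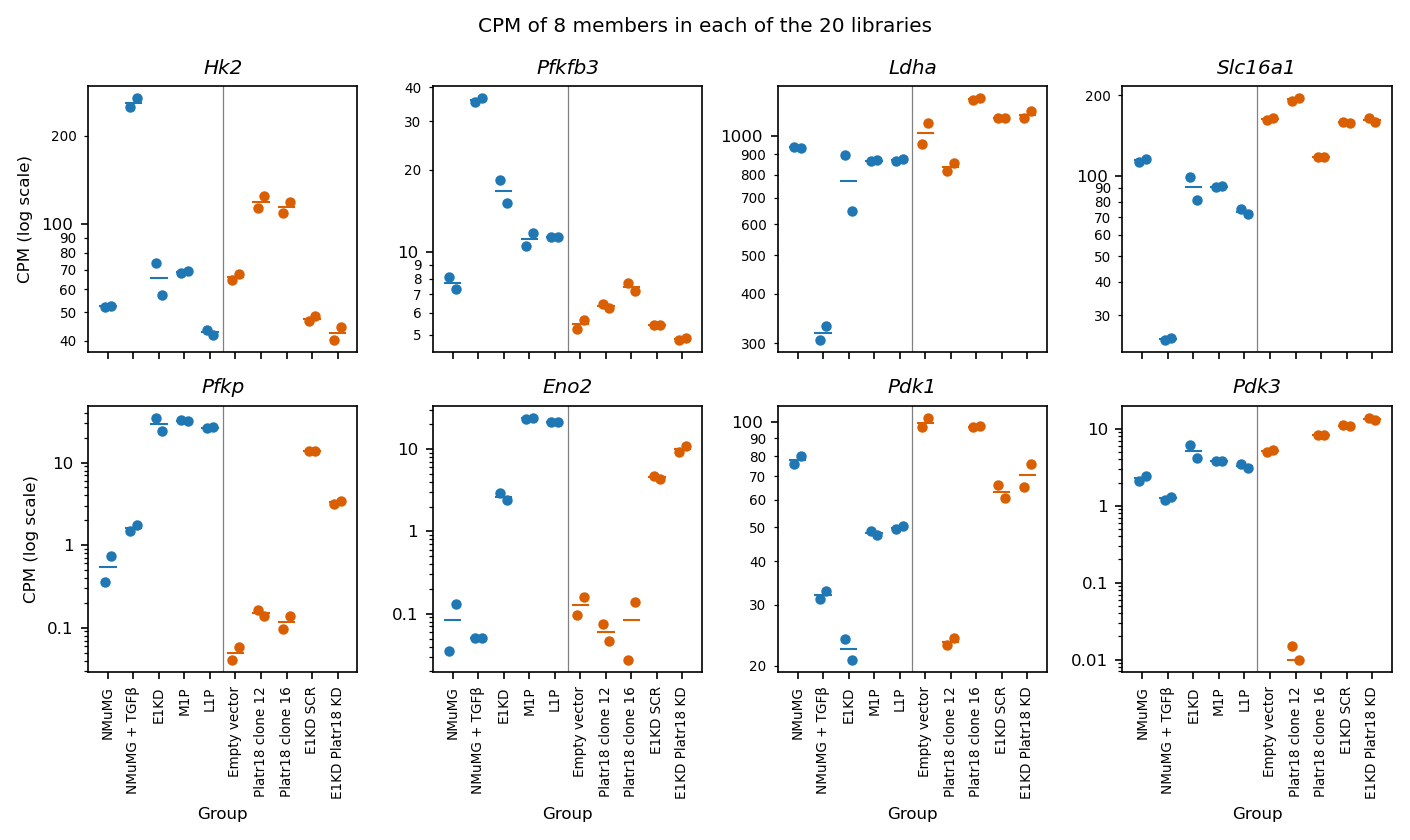
CPM on a log axis of 8 members in each library (points) with group means (lines); blue is the first kind of library and orange the other, and values below 0.01 CPM are drawn at 0.01. Hk2 and Pfkfb3 peak after TGFβ, Pfkp and Eno2 appear with hnRNP E1 silencing, and Pdk3 is near 0 in clone 12 alone.

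Silencing of hnRNP E1 was also read in the other kind of library by setting E1KD SCR against the empty vector. These lines may not match E1KD and NMuMG. As given above, Platr18 was no higher in E1KD SCR than with the empty vector, and mesenchymal sums differed less than in the first kind. In E1KD SCR 5 members rose and 7 fell (limma), with 23% and 19.6% of all genes, and 4 changed at least 2-fold, as did 6% of all genes. After rescaling 6 rose and 9 fell, with 26.5% and 26.8% of all genes. The members' median was -0.02 against 0.02 over all genes. Pfkp had 0.0412 and 0.0580 CPM with the empty vector and 13.9 and 13.8 CPM in E1KD SCR (log2 fold change 3.82, SE 0.14, limma adjusted p 2.05e-11). This is about 1897 reads against 7, a ratio of 281 (136 to 701). Its opposite-strand neighbor Pitrm1 had 61.9 and 64.2 CPM in E1KD SCR against 91.2 and 94.97 CPM with the empty vector.

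Eno2 had 0.0960 and 0.159 CPM with the empty vector and 4.67 and 4.35 CPM in E1KD SCR (2.29, SE 0.09, limma adjusted p 5.94e-11), a read ratio of 35.7 (22.4 to 60.6). Aldoc had 15.4 and 16.2 CPM with the empty vector and 3.21 and 2.41 CPM in E1KD SCR (-2.15, SE 0.13, limma adjusted p 1.04e-08). Both genes were clear of overlap, though Eno2 was tested only through groups that carry the hnRNP E1 shRNA. Eno3 had 68.2 and 71.8 CPM with the empty vector and 29.1 and 28.4 CPM in E1KD SCR, also apart (-1.25, SE 0.22, limma adjusted p 0.000323). Pdk3 (0.96), Pfkfb4 (0.68) and Hk1 (0.42) also rose, and Pdk1 (-0.65), Eno1 (-0.61), Slc2a1 (-0.55), Hk2 (-0.46) and Hif1a (-0.39) fell.

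The difference between both readings of the silencing was tested for each gene. It passed for 8 of 28 members, 4 higher and 4 lower in the first kind, and for 21.3% of all genes. After rescaling 4 were higher and 11 lower, with 16% and 14.2% of all genes. Pdk1 fell further in the first kind of library by -1.11 log2 (SE 0.12, limma adjusted p 9.21e-06). Pfkfb3 rose there and had 5.22 and 5.66 CPM with the empty vector against 5.41 and 5.42 CPM in E1KD SCR, a difference of 1.02 between the effects. Eno3 differed by 1.42, its NMuMG libraries being at 14.5 and 14.4 CPM and its E1KD libraries at 24.2 and 10.9 CPM. Hk2 (0.77), Pfkfb4 (0.64), Eno2 (-0.54), Tpi1 (-0.50) and Slc16a3 (-0.41) made up the rest. Slc16a3 had at most 1 read in each empty vector and E1KD SCR library, so its difference only restates its fall in the first kind. The kind of library, the vector, the lines themselves and any difference in time, which the labels do not give, cannot be told apart here.

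In the primary tumor line M1P against E1KD, 5 members rose and 3 fell (limma), with 12.1% and 37.0% of all genes. The members' median was -0.04 and that of all genes -0.17. At least 2-fold changes were called for 3 members and 4.31% of all genes. After rescaling, which lowers E1KD library 1, 14 members rose and 2 fell, with 25% and 26.2% of all genes, and the median was 0.18 against -0.01. Fewer members were called here too with the spread taken from the compared groups only. Eno2 had 2.89 and 2.38 CPM in E1KD and 23.4 and 23.8 CPM in M1P, a log2 fold change of 2.76 (SE 0.09, limma adjusted p 1.52e-11). The ratio of the group means was 8.94 with no overlap, and per kilobase Eno2 rose from 1.10% to 9.99% of the enolase CPM, in which copies of Eno1 are not counted.

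Pdk1 had 23.9 and 20.9 CPM in E1KD and 48.8 and 47.4 CPM in M1P (1.07, SE 0.08, limma adjusted p 1.86e-07). Aldoc had 1.87 and 1.13 CPM in E1KD and 4.14 and 4.38 CPM in M1P (1.09, SE 0.13, limma adjusted p 2.19e-05). Neither gene overlapped between the lines, and both stayed below their NMuMG libraries. Hif1a (0.45) and Tpi1 (0.38) rose as well. Pfkfb3 (-0.54), Pdk3 (-0.35) and Slc16a3 (-0.25) fell, of which Pdk3 was not called after rescaling (-0.17). Slc16a3 was low in both lines, at 0.650 and 0.591 CPM in E1KD and 0.349 and 0.372 CPM in M1P. Pfkp, at 32.5 and 31.7 CPM, kept the level of E1KD within the spread of that group. M1P and L1P had more host blood marker CPM (5.57 to 6.85 summed over Ptprc, Cd68, Lyz2 and Cd3e) than the other groups of their kind (1.45 to 2.72), with Ptprc and Cd3e under 1 CPM, and endothelial, adipocyte and lung epithelial markers summed to at most 0.453 CPM in any library. Cd68 was at 1 CPM or more in every group, NMuMG included. In the other kind of library the blood marker sum was 1.87 to 2.16 CPM with the empty vector. It was 3.49 to 3.93 CPM in clone 12 and 3.70 to 4.18 CPM in E1KD Platr18 KD, neither grown out of a tumor. Whether host cells were present, and their part in the members' values, was not tested. In bulk RNA fewer cells with a transcript and less of it per cell cannot be told apart.

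The line from lung metastases, L1P, had 2 members higher and 6 lower than M1P (limma), while 11.2% of all genes rose and 7.30% fell. After rescaling 4 rose and 9 fell, with 15.7% and 13.7% of all genes. No member changed at least 2-fold, against 1.22% of all genes, and the members' median was -0.12 against 0.02. Pfkfb2, the heart-type bifunctional enzyme, rose from 13.6 and 13.8 CPM to 18.5 and 19 CPM (0.43), while its overlapping neighbor Yod1 went from 16.5 and 17.6 CPM to 16.5 and 16.7 CPM. Slc16a3 rose by 0.15, from 0.349 and 0.372 CPM to 0.510 and 0.505 CPM. Its values rest on few reads, and their counting error was not worked out. Aldoc (-0.91), Hk2 (-0.67), Slc2a1 (-0.46), Pgam1 (-0.37), Slc16a1 (-0.31) and Tpi1 (-0.30) fell. Eno2, at 21.2 CPM in both L1P libraries, differed from M1P by -0.15 and was not called.

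Platr18 overexpression was then examined against the empty vector, first as the mean of both clones. By this measure 3 members rose and 4 fell (limma), with 13.2% and 15.6% of all genes, and 5 rose and 9 fell after rescaling, with 19.3% and 22.1%. Changes of at least 2-fold were called for 2 members (Aldoc and Pdk1) and for 1.46% of all genes, and the members' median was 0.00 against 0.01. Hk2 was the member that rose most, from 64.5 and 67.6 CPM with the empty vector to 113.4 and 125.0 CPM in clone 12 and 109.1 and 119.2 CPM in clone 16. All 4 clone libraries lay above both controls, and the mean log2 fold change was 0.81. Hk1 (0.35) and Pfkfb3 (0.29) also rose. Ldha and the genes of lower glycolysis, Pkm and Gapdh among them, were not called for the mean of the clones. After rescaling Pgk1 (0.25) and Pgam1 (0.18) were called higher, and both also with copies added (0.25 and 0.19). These means join clones on opposite sides of the control. Pgk1 had 359.9 and 385.2 CPM with the empty vector, 296.4 and 300.9 CPM in clone 12 and 657.5 and 672.6 CPM in clone 16. Pgam1 had 386.0 and 387.0 CPM, 348.0 and 363.2 CPM, and 532.1 and 557.5 CPM in the same order.

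The falls were larger in clone 12 than in clone 16. In clone 12, 12 members changed, 4 up and 8 down, as did 39.6% of all genes, and 3 changed at least 2-fold, as did 3.67% of all genes. After rescaling 5 rose and 13 fell, with 24.2% and 27.1% of all genes. Aldoc had 15.4 and 16.2 CPM with the empty vector, 2.53 and 2.47 CPM in clone 12 and 12.3 and 11.9 CPM in clone 16. Its log2 fold change was -2.26 in clone 12 (SE 0.13, limma adjusted p 1.21e-08) and -1.31 for the mean of the clones. Both clone 16 libraries were also below both controls, by -0.36 log2, which was not called (limma adjusted p 0.0689) but was after rescaling (-0.37). Pdk1 had 96.8 and 103.0 CPM with the empty vector, 23 and 24 CPM in clone 12 and 96.9 and 97.7 CPM in clone 16. It fell by 2.04 on the log2 scale in clone 12 (SE 0.08, limma adjusted p 2.32e-10) and by 1.04 for the mean, although clone 16 overlapped the control.

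Pdk3 (chrX:93764607-93832202, minus strand) had 4.96 and 5.29 CPM with the empty vector and 8.4 and 8.38 CPM in clone 16. In clone 12 it was down to 1 read in library 1 and 0 reads in library 2, against about 362 and 365 reads with the empty vector. That is 678-fold lower by reads, with a 95% exact interval of 121 to 26824 for counting error only. The fitted log2 fold change of -2.60 (limma adjusted p 5.73e-10) is smaller because 1 was added to every CPM value. Expressed genes near Pdk3 on the X chromosome, chosen after their values were seen, were present in clone 12. Pola1 had 65.2 and 64.6 CPM there and 51.9 and 55.2 CPM with the empty vector, and Klhl15 7.68 and 7.65 CPM against 8.25 and 7.75 CPM.

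Other changes in clone 12 were rises of Eno3 (0.85), Hk2 (0.84), Hk1 (0.61) and Slc16a1 (0.24) and falls of Pdk2 (-0.68), Tpi1 (-0.63), Pfkl (-0.57), Pfkm (-0.47) and Pfkfb2 (-0.29). In clone 16, 8 members changed, 6 up and 2 down, beside 23.2% of all genes, and 10 rose and 4 fell after rescaling, with 17.4% and 18.7%. None changed at least 2-fold, against 1.78% of all genes. Pgk1 (0.84), Hk2 (0.78), Pfkfb1 (0.66), Pdk3 (0.62), Pgam1 (0.49) and Pfkfb3 (0.40) rose, and Eno3 (-0.89) and Slc16a1 (-0.47) fell. Apex2, which overlaps Pfkfb1, had 16.9 and 18.3 CPM in clone 16 and 10.4 and 9.44 CPM with the empty vector, and its part in the rise of Pfkfb1 was not tested. The members' median was 0.10 in clone 16 and -0.10 in clone 12, with all genes at 0.02 and 0.00.

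Since both clones share the empty vector control, they were set against each other. Clone 16 was higher than clone 12 for 12 members and lower for 3 (limma), a difference called for 42.5% of all genes, and higher for 15 and lower for 3 after rescaling, with 28.4% and 25.2%. At least 2-fold differences were seen for 5 members and 4.38% of all genes. Pdk3 was higher by 3.22 log2, Pdk1 by 2.01 and Aldoc by 1.90, with the library values given above. Pgk1 had 657.5 and 672.6 CPM in clone 16 and 296.4 and 300.9 CPM in clone 12 (1.15, limma adjusted p 0.000142). Eno3 had 36.6 and 38.1 CPM in clone 16 and 122.4 and 132.6 CPM in clone 12 (-1.74, limma adjusted p 1.85e-05). These 5 genes overlapped in no library. Ldha was higher in clone 16 by 0.57, at 1231 and 1247 CPM against 815.2 and 855.3 CPM, and Aldoa by 0.62, while Hk2 did not pass the test.

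The last question was what Platr18 silencing did in E1KD cells. Against E1KD SCR, 4 members rose and 3 fell in E1KD Platr18 KD (limma), as did 8.45% and 11% of all genes. After rescaling 7 rose and 3 fell, with 16.3% and 15.1% of all genes. The members' median was 0.03 and that of all genes -0.02. On the log2(CPM + 1) scale only Pfkp changed at least 2-fold, as did 1.48% of all genes. It had 13.9 and 13.8 CPM in E1KD SCR and 3.16 and 3.45 CPM after Platr18 silencing, a log2 fold change of -1.79 (SE 0.14, limma adjusted p 4.54e-07). The groups were well apart, and Pitrm1 had 54.3 and 53.4 CPM against 61.9 and 64.2 CPM.

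Eno2 had 4.67 and 4.35 CPM in E1KD SCR and 9.16 and 10.9 CPM after Platr18 silencing, so Pfkp and Eno2, both higher in E1KD SCR than with the empty vector, moved in opposite directions here. The log2 fold change of Eno2 was 1.00 (SE 0.09, limma adjusted p 2.58e-06) and 1.03 after rescaling. It was just under the 2-fold limit because 1 was added to every CPM value. Hk1 had 51.8 and 57.1 CPM in E1KD SCR and 104.0 and 103.4 CPM after silencing (0.92, SE 0.13, limma adjusted p 0.000182). Per kilobase, Hk2 was 55.6% of the hexokinase CPM in E1KD SCR and 36.9% after silencing, while its own change of -0.16 was not called. Slc2a1 (0.46) and Tpi1 (0.29) rose, and Eno3 (-0.97) and Pfkfb4 (-0.46) fell. Ldha had 1114 and 1113 CPM in E1KD SCR and 1109 and 1158 CPM after silencing and was not called (0.03). Platr18 itself was low in E1KD SCR, as given above.

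**Figure D5:**
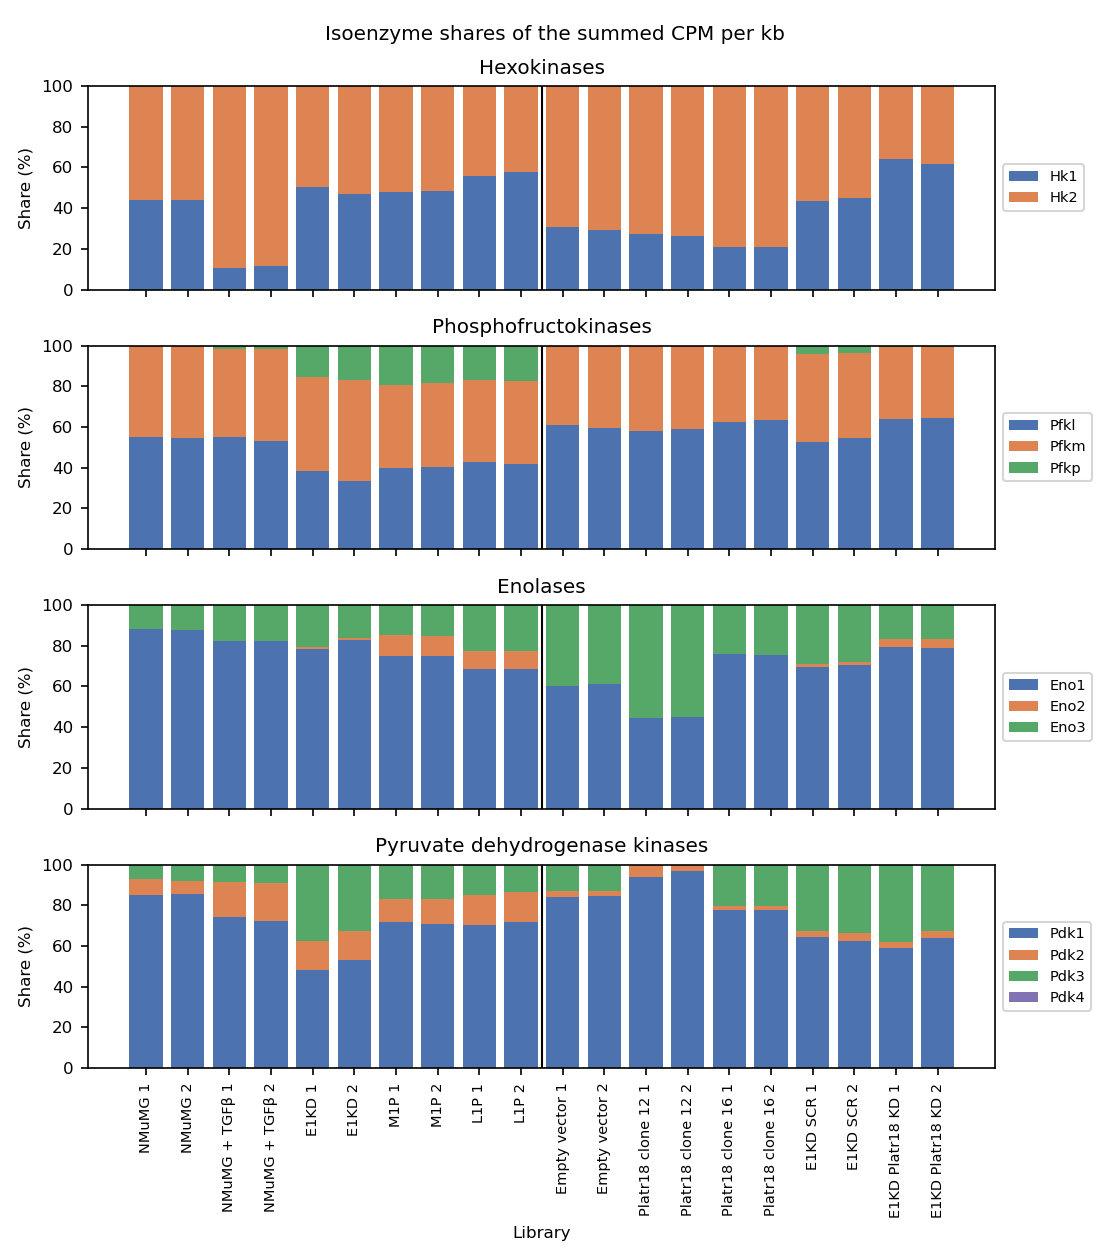
Share of CPM per kilobase of merged exons taken by each isoenzyme within its family, in each of the 20 libraries, without near-identical copies. As means of 2 libraries, Hk2 takes 88.9% of hexokinase after TGFβ, Pfkp 16.2% of phosphofructokinase in E1KD, and Pdk3 0.0923% of the kinases in clone 12.

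The shares of CPM per kilobase describe the transcripts of each isoenzyme family. Aldoa made up 97.5% to 99.8% of aldolase CPM in every group, so the changes of Aldoc concerned a small part of the family. Slc16a1 was at least 96.5% of the CPM of both lactate transporters in each group. Enolase was more mixed, with Eno3 at 55.1% in clone 12, 39.3% with the empty vector and 24.4% in clone 16, copies of Eno1 not counted. With them counted at the length of Eno1, these shares were 24.7%, 14.6% and 7.94%, and that of Eno2 was 0.171% in E1KD and 1.48% in M1P. Pfkp was 18.9% of phosphofructokinase in M1P and 17.3% in L1P, and in the other kind of library 3.92% in E1KD SCR and 0.916% after Platr18 silencing. Pdk3 was 35.2% of the kinases in E1KD and 33.2% in E1KD SCR.

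The 5 members that were not tested stayed low everywhere. Slc2a3 and Slc2a4, glucose transporters of neurons and of insulin-responsive tissue, reached at most 0.399 and 0.138 CPM. Pgam2, the muscle mutase, reached 0.8 CPM, Ldhb, the heart-type lactate dehydrogenase subunit, 0.197 CPM and Pdk4 0.0154 CPM. Pfkfb1, which was tested, lay between 0.559 and 5.26 CPM, and Pfkfb2 between 9.5 and 19 CPM. Pdk2, tested too, lay between 0.292 and 4.27 CPM.

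Around the route, other gene lists were read in the same fit. Of 17 tested genes of the HIF pathway and its other targets, 10 rose and 6 fell after TGFβ (21.8% and 33.6% of all genes). In E1KD 3 rose and 10 fell (39.6% and 17.1%), and after rescaling 1 rose and 13 fell there (31.5% and 29.5%). In M1P against E1KD 6 rose and 5 fell (12.1% and 37.0%), and in E1KD SCR 2 rose and 7 fell (23% and 19.6%). The prolyl hydroxylase Egln3, which marks HIF subunits for destruction, had 31.9 and 35.4 CPM in NMuMG and 5.66 and 6.73 CPM after TGFβ (log2 fold change -2.27). Bnip3, a mitophagy receptor, went from 17.7 and 17.8 CPM to 4.25 and 3.07 CPM with E1KD (-2.02) and stood at 15.5 and 15.4 CPM in M1P. In clone 12 it had 5.36 and 4.46 CPM against 25.4 and 30.5 CPM with the empty vector (-2.29). Clone 12 had 3 genes of this list higher and 8 lower than the empty vector, with 39.6% of all genes changed, and clone 16 had 5 higher and 2 lower, with 23.2%.

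Of 8 pentose phosphate genes, which branch from glucose 6-phosphate, 1 rose and 6 fell after TGFβ, against 21.8% and 33.6% of all genes. In E1KD 5 rose and 1 fell, against 39.6% and 17.1%. Rescaled, 2 rose and 5 fell after TGFβ (32.9% and 29.5% of all genes), and 5 rose and 1 fell in E1KD (31.5% and 29.5%). G6pdx, the entry enzyme of that branch, fell by 1.01 on the log2 scale after TGFβ and rose by 0.74 in E1KD. Tkt, transketolase, went from 58.5 and 60.4 CPM to 273.3 and 128.8 CPM in E1KD, with much spread in the latter. Of 11 genes of pyruvate entry to mitochondria, 2 rose and 4 fell after TGFβ and 6 rose and 2 fell in E1KD. Of all genes 21.8% rose and 33.6% fell after TGFβ, and 39.6% and 17.1% did in E1KD. Rescaled, the counts of this list were 3 up and 4 down after TGFβ and 6 up and 4 down in E1KD. Among 6 tested regulators, Txnip, a thioredoxin-binding inhibitor of glucose uptake, had 95.6 and 92.7 CPM in NMuMG, 46.7 and 49.3 CPM after TGFβ and 31.8 and 25.5 CPM in E1KD. In clone 12 it had 32.6 and 33.5 CPM against 88.6 and 84.5 CPM with the empty vector. Of 13 other isoenzymes, 4 rose and 6 fell after TGFβ, and 5 and 6 after rescaling. In E1KD 4 rose and 4 fell, against 39.6% and 17.1% of all genes, and 4 rose and 7 fell after rescaling. There Pklr, the liver and red cell pyruvate kinase, fell by 2.60 on the log2 scale. Of 3 other carriers of the SLC2A family tested, 2 fell after TGFβ, Slc2a2 (-1.71) and Slc2a9 (-1.73), beside 33.6% of all genes.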

How the data were processed

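The authors deposited 1 table of CPM (counts per 1e6 reads) with 0.0001 added to every value. Per their methods and the labels, total RNA was sequenced on a HiSeq2500, aligned with Bowtie2 2.2.5 and assigned to GRCm38.p6 genes (M18) by expectation-maximization, so CPM need not be whole reads and no count model was used. Reads behind low values were taken from the step of 1 read in each library and cover counting error only. The 33 members and all lists were chosen with earlier results of these data known.

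The 17106 genes that reached 1 CPM in 2 or more of the 20 libraries were fitted as log2(CPM + 1) with limma 3.58.1 (R 4.3.3; lmFit, eBayes with trend; 10 group means, 10 residual degrees of freedom), which understates changes of low genes. Calls needed a Benjamini-Hochberg adjusted p under 0.05, and 2-fold calls also a log2 change of at least 1. Every member that changed at least 2-fold was to be given with all library values. An exact permutation test of 2 against 2 libraries could not go below 0.333. Median-of-ratios factors were taken within each kind of library. Copies were found with BLAST 2.17.0. Tables used Python 3.11.15, pandas 2.3.3, numpy 2.4.6 and scipy 1.17.1, and figures matplotlib 3.10.9. The fit was tested on simulated data.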

Additional observations from a re-analysis of the deposited data

Results flagged for a closer look

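Effects that differed between groups by a test of the difference itself (limma) were as follows. Between both readings of hnRNP E1 silencing, the effect on Pdk1 differed by -1.11 log2 (adjusted p 9.21e-06), that on Pfkfb3 by 1.02 (adjusted p 4.57e-05) and that on Eno3 by 1.42 (adjusted p 0.0045). Between the Platr18 clones 16 and 12, Pdk3 differed by 3.22 log2 (adjusted p 4.65e-11), Pdk1 by 2.01 (adjusted p 2.06e-10), Aldoc by 1.90 (adjusted p 6.24e-08), Eno3 by -1.74 (adjusted p 1.85e-05) and Pgk1 by 1.15 (adjusted p 0.000142). With 2 libraries a group, single outlying libraries were not looked for.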

How the results depend on the processing

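The counts of members called depended on the spread estimate and the scaling, for which the cause was not tested. Over 33 changes of at least 2-fold and 989 values under other settings, 985 kept their call, 0 reversed and 4 lost it, all with the compared groups only: in E1KD Pfkfb4 and Pfkfb3 (adjusted p 0.0558 and 0.0515) and in M1P Pdk1 and Aldoc (adjusted p 0.0546 and 0.113). With median-of-ratios scaling 8 of the 33 were under 2-fold. With the compared groups only, 5 members were called in E1KD (17 as reported), 1 in M1P (8), 17 in L1P (8), 15 for the clones' mean (7), 14 after Platr18 silencing (7), 3 for the difference between kinds of library (8) and 10 for E1KD against TGFβ (23). With libraries of the same kind only, L1P had 2, the clones' mean 17, clone 16 16 (8 as reported) and Platr18 silencing 13. Median-of-ratios scaling gave 16 in M1P, 13 in L1P, 14 for the clones' mean, 14 in clone 16 and 15 between kinds, and with copies added as well 19, 14, 14, 14 and 17, with 11 after Platr18 silencing. Of all genes, this scaling called 51.1% in M1P, 29.5% in L1P, 41.4% for the clones' mean, 36.1% in clone 16 and 30.2% between kinds. On the deposited scale 23.2% were called in clone 16 and 21.3% between kinds, so the share of all genes rose too. For the other settings of this section such shares are not given, so those counts are no result about the members. Equal sums gave 16 in M1P, 14 for the clones' mean, 14 in clone 16, 12 after Platr18 silencing and 16 between kinds. The study's limits (unadjusted p under 0.001 and at least 2-fold) left 6 in E1KD, 14 after TGFβ, 3 in M1P, 0 in L1P, 2 for the clones' mean, 3 in clone 12, 0 in clone 16, 1 after Platr18 silencing and 4 in E1KD SCR. Copies and the crossed block were added after seeing the data.

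Leaving out 1 library at a time gave 15 to 24 members in E1KD, 21 to 24 after TGFβ, 6 to 22 in M1P, 2 to 14 in L1P, 4 to 17 for the clones' mean, 8 to 18 in clone 12, 6 to 16 in clone 16, 4 to 14 after Platr18 silencing, 10 to 16 in E1KD SCR, 7 to 19 between kinds, 13 to 20 between clones and 21 to 26 for E1KD against TGFβ. The highest counts came without either E1KD library, which then adds nothing to the shared spread (19 and 22 in M1P, 14 and 14 in L1P, 17 and 17 for the clones' mean, 16 and 16 in clone 16, 14 and 14 after Platr18 silencing, 19 and 19 between kinds). L1P against M1P dropped to 4 and 2 without L1P libraries 1 and 2 and to 3 and 2 without M1P libraries 1 and 2, the clones' mean to 4 without empty vector library 1, and Platr18 silencing to 4 without its library 2. Replicate numbers did not pair the samples (correlations of deviations from -0.395 to 0.287), and a fit with the replicate block gave 17 members in E1KD, 22 after TGFβ, 8 in M1P, 8 in L1P, 7 for the clones' mean, 12 in clone 12, 8 in clone 16, 7 after Platr18 silencing, 12 in E1KD SCR, 8 between kinds, 15 between clones and 23 for E1KD against TGFβ. With the block crossed, 8 were called in clone 16 and 26 for E1KD against TGFβ. Shares of all genes are not given beside the counts of this paragraph, so their swings are no result about the members. Depth limits Pfkp, Eno2 and Pdk3 where they rest on under 20 reads.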
